A study of Mus musculus with 4 samples.

Results

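Mouse chromosome 11 was examined along its length for where topologically associating domains (TADs) of fetal and adult haematopoietic stem cells (HSCs) began and ended. The members were all TADs that the authors' lists place on chromosome 11, which were 96 in the fetal and 108 in the adult list, or 204 of 4628 TADs in all. The chromosome was chosen by a measured value, its low share of boundaries held by both lists, so that share and the values that rest on it are a description and were not tested.

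The study sampled HSCs of B6129SF1 mice by Hi-C, a method that joins and sequences DNA ends lying near each other in the fixed nucleus. The 4 samples formed 2 groups of 2, fetal liver HSCs of embryonic day 14.5 and bone marrow HSCs of mice aged 6 to 8 weeks. No deletion, transgene or treatment is named for either group. Cells of both groups were sorted as lacking lineage markers and CD135 and bearing Sca1 and cKit, a gate that per the labels defines the HSCs and that these data, which hold no expression values, could not check. Each cell type had a single TAD list, which leaves every value without a replicate error, and how many contacts each list rests on is unknown.

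A TAD is a stretch of chromosome whose parts contact each other more often than they contact the neighbouring stretches. Many TAD boundaries in mammals are bound by CTCF, at which cohesin that extrudes a chromatin loop tends to stop, and a boundary limits which enhancers and promoters meet. When a boundary is gained a TAD is divided, and when a boundary is lost neighbouring TADs merge. Mouse chromosome 11 carries several genes known for their part in blood formation, among them the alpha-globin genes, Bcl11a, Ikzf1, Meis1 and the Hoxb cluster. Their positions were not used here, because the gene table at hand belongs to another genome build than mm9, the build of the lists per the submitters' processing notes.

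The fetal TADs of chromosome 11 were fewer and had the longer median. The fetal median was 990 kb and the adult median 835 kb, against 780 and 750 kb on all other chromosomes pooled. The adult list held 12 TADs more, and no other chromosome had a larger difference in either direction, although chromosome 14 had 12 fewer adult TADs. Relative to its number of TADs chromosome 19 differed more, with 49 fetal and 57 adult TADs and medians of 1080 and 840 kb. TADs shorter than 450 kb made up 10.4% of the fetal and 11.1% of the adult list on chromosome 11, and 15.4% and 14.4% elsewhere. TADs of 2000 kb or more made up 10.4% and 9.26%, and 8.87% and 7.90% elsewhere.

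The shortest fetal TAD, chr11:55095001-55305000, measured 210 kb, and the shortest adult TAD, chr11:110205001-110365000, 160 kb. The longest fetal TAD, chr11:90555001-93745000, measured 3190 kb and had an adult counterpart of 3180 kb. The longest adult TAD, chr11:11895001-16365000, measured 4470 kb and lay almost wholly where the fetal list had no TAD.

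The positions of TAD edges were then set side by side. The distinct starts and ends of TADs gave 99 fetal and 110 adult boundaries, and a boundary was called shared when the other list had one within 40 kb. Of the fetal boundaries 61 were shared, or 61.6% (95% exact Clopper-Pearson interval 51.3 to 71.2), against 83.4% over all chromosomes. Of the adult boundaries 61 were shared, or 55.5% (45.7 to 64.9), against 83.5% over all chromosomes. These intervals treat boundaries as independent and cover counting error only. The 61 shared boundaries formed 61 pairs, each boundary used once. The first and the last pair were the ends of the mapped chromosome, at 3005000 and 121843856, and without them the shares were 60.8% and 54.6%.

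Within the pairs, fewer positions coincided on chromosome 11 than over the other chromosomes pooled. Of its 61 pairs 13 were at the same coordinate, or 21.3%, against 36.6% on the other chromosomes and 36.1% over all chromosomes. A distance of 20 to 40 kb was found for 27 pairs, or 44.3%, against 23.0% of 1935 pairs on the other chromosomes. The adult boundary lay at the higher coordinate in 28 pairs and at the lower in 20, with a mean offset of 2.62 kb and a median of 0 kb. Chromosome 19 was similar, with 48.7% of 39 pairs 20 to 40 kb apart, and chromosome 14 was not, with 24.3% of 74. Pairs of the lists thus differed in spacing, but not by a common shift in 1 direction along chromosome 11.

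Just inside the limit, 4 pairs were 40 kb apart, and just outside it 5 boundaries of each list were 50 kb from the nearest of the other list. Boundaries displaced by 50 to 100 kb formed 17 such pairs on chromosome 11, or 17.2% of fetal boundaries (10.3 to 26.1), with a median distance of 60 kb. On the other chromosomes there were 92, or 4.01% of fetal boundaries, and the share per chromosome ranged from 1.06% to 10.0%, the highest being chromosome 19. The adult boundary of the 17 lay higher in 7 and lower in 10. The window from 80 to 90 Mb held 6 of these displaced pairs, which was more than any other window of the chromosome.

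A gap of more than 100 kb to the other list's nearest boundary was found for 21 fetal and 32 adult boundaries, or 21.2% and 29.1%, against 11.6% and 10.9% elsewhere. The most distant fetal one, at 95925000, lay 840 kb from the nearest adult boundary. The most distant adult one, at 33595000, lay 1040 kb from the nearest fetal boundary. On chromosome 11 the 50 to 100 kb band and the band beyond 100 kb were thus both fuller than on the other chromosomes pooled, the adult list more so in the latter. Shares beyond 100 kb were not obtained for single other chromosomes, so that band cannot be called particular to chromosome 11.

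**Figure D1:**
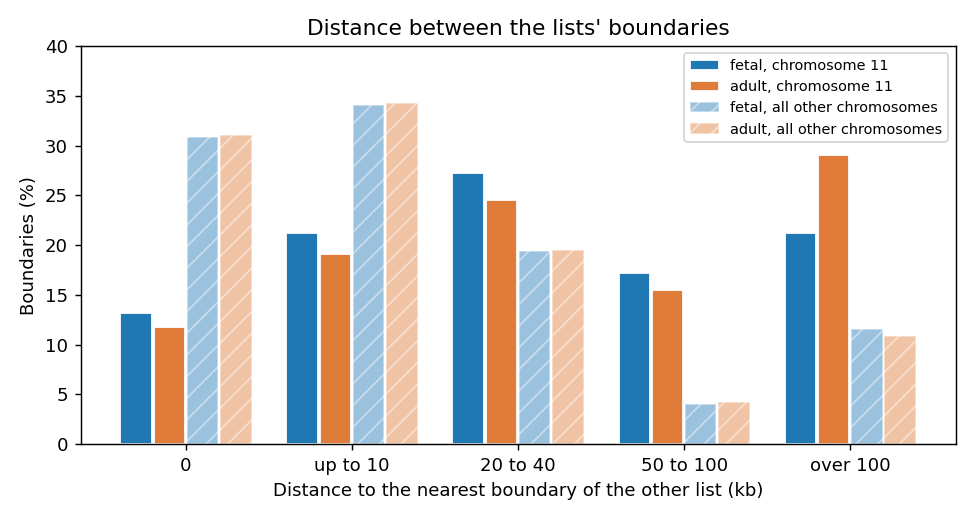
Share of boundaries (vertical axis, %) by the distance to the nearest boundary of the other list (horizontal axis, kb), for the fetal and adult lists on chromosome 11 (plain bars) and on all other chromosomes (hatched bars). On chromosome 11 17.2% of fetal boundaries lay 50 to 100 kb away, against 4.05% elsewhere.

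To see where TADs were divided or merged, the chromosome was cut at the 61 paired boundaries into 60 stretches. A stretch without a further boundary in either list is a TAD present in both, with both ends paired within 40 kb. Such stretches numbered 30, or 50.0%, against 75.2% over all chromosomes. Their fetal lengths ran from 340 to 3190 kb with a median of 1040 kb, and their lengths in the lists differed by a median of 20 kb and at most 70 kb. None of these 30 TADs had both ends at the same coordinates in the lists, although 13 of the 61 paired boundaries coincided. Such TADs were not counted on the other chromosomes, so this is no trait of chromosome 11.

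In 9 stretches, or 15.0% against 8.00% over all chromosomes, a single fetal TAD was divided in the adult list, each time into 2 parts. The whole TADs had a median of 1380 kb and the shorter adult part a median of 530 kb, from 160 to 760 kb. In 3 stretches, or 5.00% against 6.68%, a single adult TAD was divided in the fetal list, 2 of them into 2 parts and 1 into 3. The counts of 9 and 3 depended on the tolerance, and within 20 kb they were 4 and 3.

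A further 16 stretches, or 26.7% against 6.83% over all chromosomes, had inner boundaries in both lists that did not pair. These differently divided stretches had a median of 2835 kb and held 47 fetal and 51 adult TADs. The adult list had more TADs in 7 of them, the fetal list in 2, and the numbers were equal in 7. They contained 15 of the 17 pairs displaced by 50 to 100 kb, and the others bordered TAD-free sequence in the fetal list or in both lists. This follows from the definition, because such a pair leaves an unpaired inner boundary in both lists. In the remaining 2 stretches, or 3.33% against 2.23%, part of the sequence was without a TAD in at least 1 list. No stretch was TAD-free over its whole length in both lists, against 1.11% over all chromosomes, because the edges of the long TAD-free region did not pair within 40 kb.

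By length, TADs present in both lists took up 33.1% of chromosome 11 in fetal coordinates, or 39.3 Mb. Differently divided stretches took up 36.5%, or 43.4 Mb, fetal TADs divided in the adult list 11.9%, adult TADs divided in the fetal list 4.29%, and partly TAD-free stretches 14.3%. Over all chromosomes these last 3 classes took up 10.1%, 8.32% and 11.8%. By length, fetal TADs divided in the adult list were thus near the level of all chromosomes, and 7 other chromosomes had a larger share of them, while 6 had a larger partly TAD-free share and 16 a larger share of adult TADs divided in the fetal list. On the 19 other chromosomes the share present in both ran from 37.2% on chromosome 19 to 69.3% on chromosome 16, with a median of 59.3%. The differently divided share ran from 2.47% on chromosome 5 to 26.0% on chromosome 19, with a median of 10.8%. Chromosome 11 thus had the lowest and the highest of these values, respectively. The second was compared between chromosomes only at 40 kb. The first depended on the tolerance. Within 20 kb chromosome 11 had 21.0% and 1 other chromosome was lower, and within 100 kb it had 45.8% and 3 others were lower. Both shares rest on the boundary sharing for which the chromosome was picked.

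**Figure D2:**
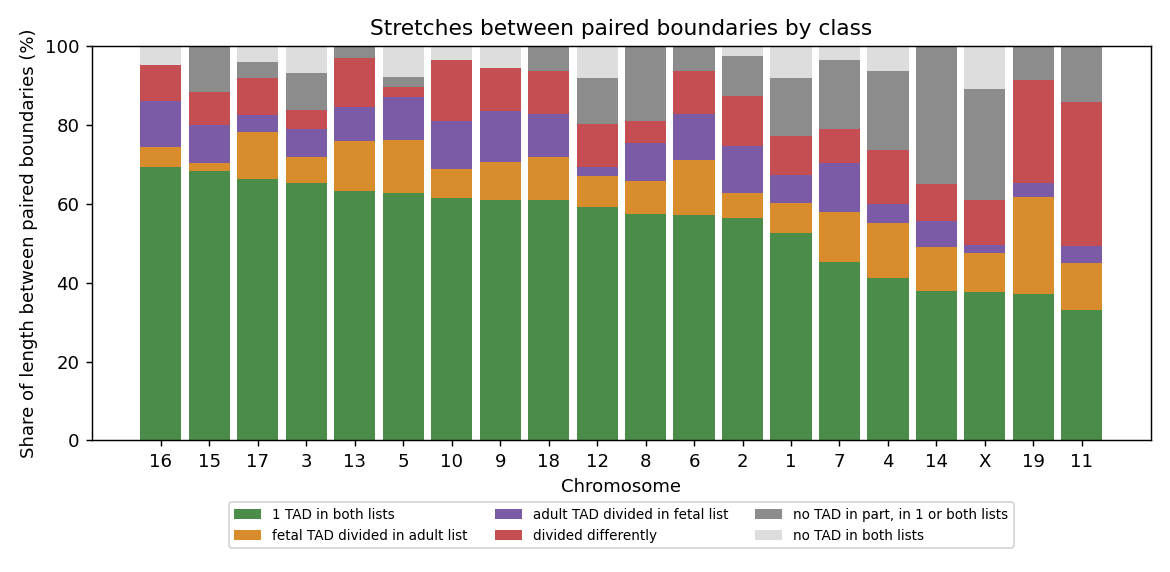
Share of each chromosome's length between paired boundaries (vertical axis, %) by class of stretch, with chromosomes (horizontal axis) ordered by the share held by TADs present in both lists. Chromosome 11 stands last with 33.1%, and its differently divided share is 36.5%.

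Whole TADs were also matched by an overlap of at least 80% of both lengths, which asks less of the single edges. By this measure 53 fetal TADs, or 55.2% (44.7 to 65.4), had an adult counterpart, against 73.4% over all chromosomes. Of the adult TADs 53, or 49.1% (39.3 to 58.9), had a fetal one, against 73.7%. These 53 exceed the 30 TADs called present in both lists, because that term requires both ends to pair within 40 kb. At an overlap of 50% the shares were 83.3% of fetal and 74.1% of adult TADs, against 87.5% and 87.8% over all chromosomes.

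The chromosome was next followed in 13 windows of 10 Mb. In the 12 windows that held at least 8 boundaries over both lists, the shared portion of all boundaries ran from 23.1% to 100%, with a median of 61.3%. Over 240 such windows of the other chromosomes the median was 87.0% and the lower quartile 76.2%. Of the 12 windows of chromosome 11, 10 lay below that quartile and 11 below that median. The adult list had more unshared boundaries than the fetal list in 7 of the 13 windows and fewer in 4. Shared counts were equal in every window, so this balance only restates which list had more boundaries there. Each window holds few boundaries, so the intervals of single windows are wide.

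**Figure D3:**
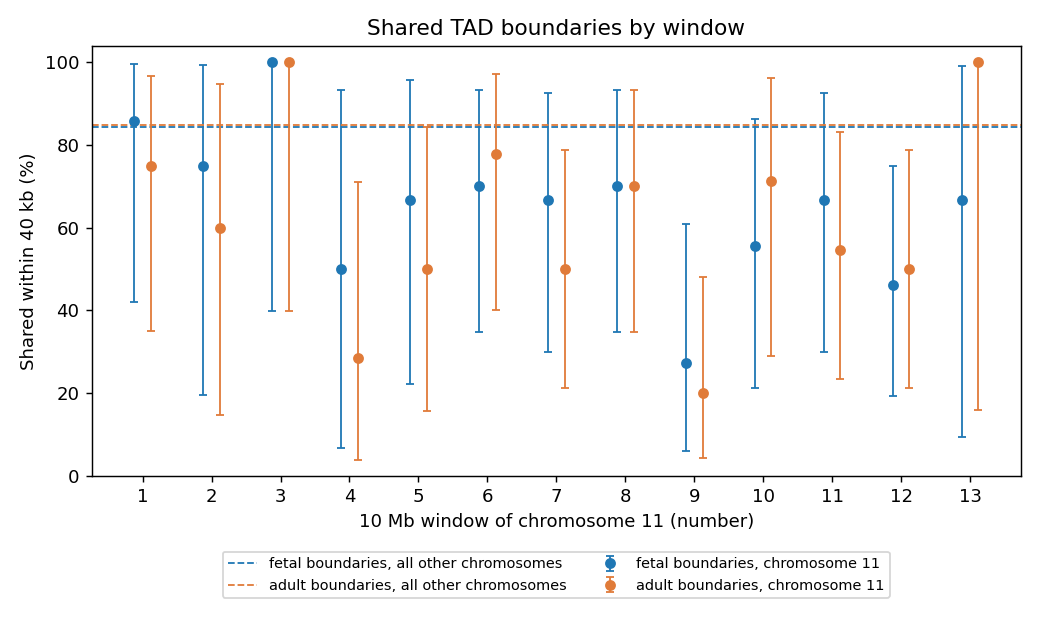
Share of fetal and adult boundaries with a partner within 40 kb (vertical axis, %) in each 10 Mb window of chromosome 11 (horizontal axis, window 1 beginning at 0). Bars are 95% exact Clopper-Pearson intervals and dashed lines are the shares over all other chromosomes, 84.4% and 84.8%. Window 9 is lowest in both lists at this tolerance and window 3 is complete in both.

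From 0 to 10 Mb, 6 of 7 fetal and 6 of 8 adult boundaries were shared. The opening stretch, chr11:3005001-4935000, held 2 TADs in each list that met at 3935000 in the fetal and 3865000 in the adult list, 70 kb apart. The fetal TAD chr11:6535001-8255000, of 1720 kb, was divided in the adult list into 550 and 1190 kb that met at 7105000. The other 3 stretches that ended in the window were present in both lists.

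From 10 to 20 Mb, 3 of 4 fetal and 3 of 5 adult boundaries were shared, and the lists differed in coverage. The fetal list had no TAD from chr11:11205001-16355000, a length of 5150 kb. The adult list covered all of it, with the end of a TAD of 2160 kb and with TADs of 590 and 4470 kb. The fetal edges of this stretch, at 11205000 and 16355000, lay 100 and 10 kb from the nearest adult boundaries.

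From 20 to 30 Mb all 4 fetal and all 4 adult boundaries were shared. Most of this window lay in a run of 6 TADs present in both lists, chr11:16355001-29025000 with a length of 12.7 Mb, and the fetal lengths in the run were between 830 and 3080 kb. TADs centred in the window had a median of 2235 kb among fetal and 2260 kb among adult ones. These long TADs were the most extended part of chromosome 11 on which the lists placed every boundary together.

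From 30 to 40 Mb, 2 of 4 fetal and 2 of 7 adult boundaries were shared, or 36.4% of all. The fetal TAD chr11:29025001-31545000, of 2520 kb and with the same outer coordinates in both lists, was divided in the adult list into 2040 and 480 kb at 31065000. Beyond it, chr11:31545001-34635000 held fetal TADs of 680 and 2410 kb and adult TADs of 1090, 420, 540 and 1060 kb. The window thus had 5 unshared adult and 2 unshared fetal boundaries, and the share did not move at a tolerance of 100 kb. A fetal TAD of 990 kb and an adult TAD of 1190 kb followed before the region without TADs that fills the rest of the window. This region was chr11:35625001-43255000 in the fetal list, of 7630 kb, and chr11:35845001-43205000 in the adult list, of 7360 kb.

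From 40 to 50 Mb, 4 of 6 fetal and 4 of 8 adult boundaries were shared. The fetal list resumed with a TAD of 1130 kb, chr11:43255001-44385000, which faced adult TADs of 380 and 780 kb. The opening edges were 50 kb apart, just beyond the tolerance, so this TAD was not counted among the divided ones. Next to it, chr11:44385001-46555000 held fetal TADs of 1360 and 810 kb and adult TADs of 510, 580 and 1090 kb. From there a run of 7 TADs present in both lists, the one with the most TADs on the chromosome, spanned chr11:46555001-53715000, or 7.16 Mb, with fetal lengths between 580 and 1970 kb. Longest runs on the other chromosomes held between 5 and 24 TADs, with a median of 13.

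From 50 to 60 Mb, 7 of 10 fetal and 7 of 9 adult boundaries were shared. The adult TAD chr11:53715001-55315000, of 1600 kb, was divided in the fetal list into 1380 and 210 kb at 55095000. The stretch chr11:57255001-61565000, of 4310 kb in both lists, held 4 TADs in each. The fetal lengths were 1480, 600, 1010 and 1220 kb and the adult lengths 870, 540, 1620 and 1280 kb. Of its 3 inner boundaries per list, those at 58735000 and 60345000 in the fetal list were 60 and 50 kb from adult ones, while the fetal one at 59335000 and the adult one at 58135000 were 660 and 600 kb from the other list's nearest.

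From 60 to 70 Mb, 6 of 9 fetal and 6 of 12 adult boundaries were shared, and the median TAD length was 1055 kb for fetal and 590 kb for adult TADs. The fetal TAD chr11:63035001-64815000, of 1780 kb, corresponded to adult TADs of 620 and 1130 kb. Likewise chr11:67675001-68815000, a fetal TAD of 1140 kb, corresponded to adult TADs of 560 and 590 kb. Between these, chr11:64815001-67675000 held fetal TADs of 1910 and 950 kb and adult TADs of 1870, 480 and 540 kb. Its fetal inner boundary was 50 kb from an adult one, so that within 100 kb the second fetal TAD was also divided in the adult list. At that tolerance 85.7% of the boundaries of the window were shared, against 57.1% within 40 kb.

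From 70 to 80 Mb, 7 of 10 boundaries were shared in each list. The stretch chr11:68815001-71975000 held fetal TADs of 660, 1350 and 1150 kb and adult TADs of 580, 1270, 470 and 800 kb. At chr11:74185001-75455000 a fetal TAD of 1270 kb was divided in the adult list into 530 and 810 kb. The opposite was found at the adult TAD chr11:76305001-78255000, of 1950 kb, with fetal TADs of 1160, 300 and 460 kb. Within 40 kb it was the single adult TAD of the chromosome divided into 3.

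From 80 to 90 Mb, 3 of 11 fetal boundaries (27.3%, interval 6.02 to 61.0%) and 3 of 15 adult boundaries (interval 4.33 to 48.1%) were shared. Within 40 kb this was the lowest window of chromosome 11, and by that rule no TAD in it was present in both lists. Of the 240 windows on other chromosomes 1 was as low, on chromosome 14 from 80 to 90 Mb, with 22.2% of 9 boundaries. At its lower edge the fetal TAD chr11:79785001-80695000, of 910 kb, was divided in the adult list into 440 and 470 kb. After it 3 differently divided stretches adjoined.

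The first of these, chr11:80695001-84685000, held fetal TADs of 2040, 300, 940 and 710 kb and adult TADs of 700, 1140, 570, 760 and 780 kb. The second, chr11:84685001-87745000, held fetal TADs of 1340, 250, 690, 310 and 470 kb and adult TADs of 520, 1170, 570, 440 and 390 kb. The third, chr11:87745001-90555000, had the same outer coordinates in both lists, with fetal TADs of 1110 and 1700 kb and adult TADs of 1000, 190, 790 and 830 kb. Together with the divided TAD before them they made up 10.8 Mb with 12 fetal and 16 adult TADs. Within 40 kb no TAD of these was present in both, although TADs still overlapped. In the third stretch the fetal TAD of 1110 kb and the adult TAD of 1000 kb began at the same coordinate. Displacements of 50 to 100 kb were frequent here, and at a tolerance of 100 kb the shared portion of the window was 69.2%. At that tolerance the window was no longer the lowest, and those from 30 to 40 Mb, with 36.4%, from 90 to 100 Mb, with 62.5%, and from 110 to 120 Mb, with 64.0%, lay below it.

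**Figure D4:**
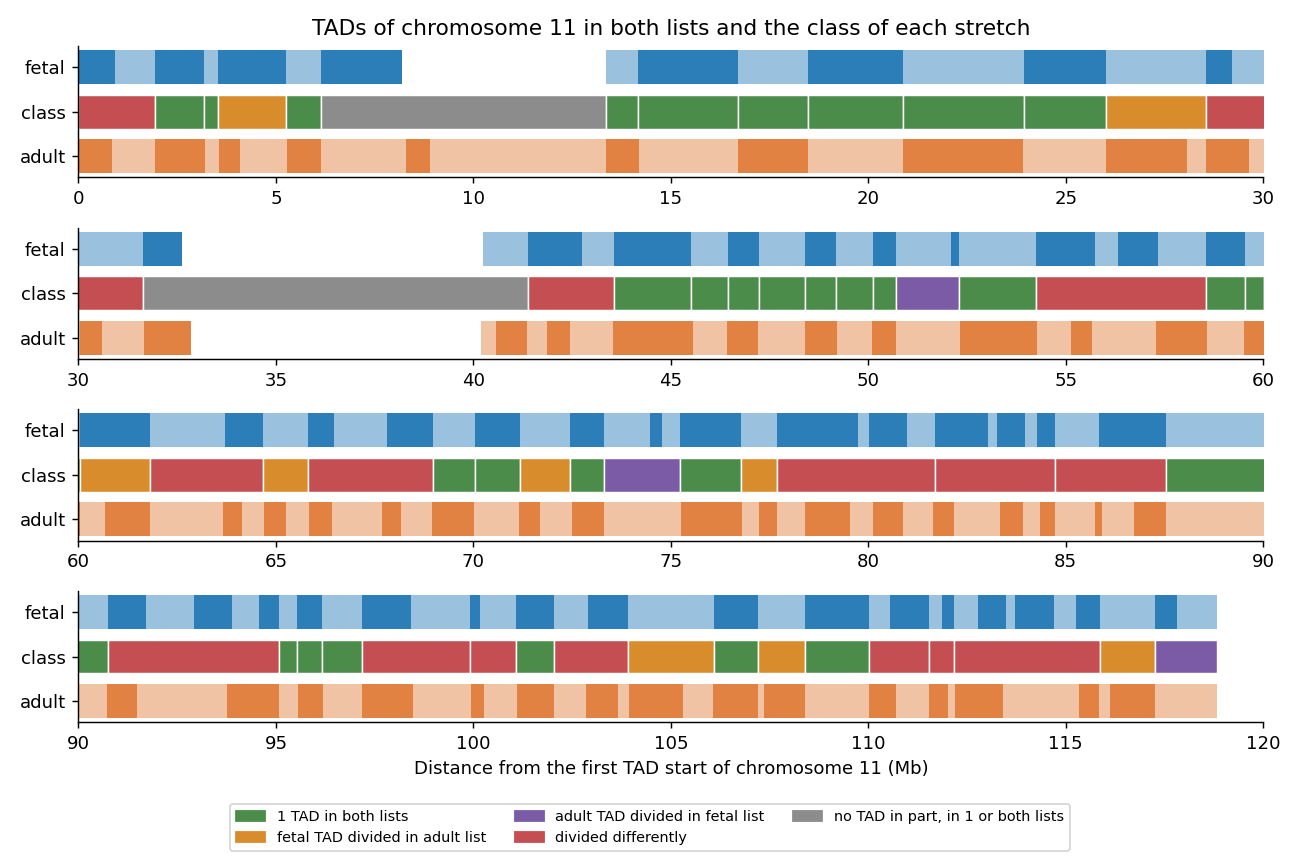
TADs of the fetal list (blue) and of the adult list (orange), alternately dark and light, along chromosome 11 in 4 rows, with the class of each stretch between paired boundaries in the middle (horizontal axis, distance from the first TAD start in Mb). White gaps in the fetal and adult tracks are stretches without a TAD. Green stretches, TADs present in both lists, make up 33.1% of the length.

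From 90 to 100 Mb, 5 of 9 fetal and 5 of 7 adult boundaries were shared. After the 3190 kb TAD present in both lists came the longest differently divided stretch, chr11:93745001-98085000, of 4340 kb. It held fetal TADs of 960, 1220, 980, 670 and 510 kb and adult TADs of 760, 2270 and 1310 kb. The adult inner boundaries, at 94495000 and 96765000, were 210 and 140 kb from the nearest fetal ones, and the share of the window did not move at 100 kb. The window ended in a run of 3 TADs present in both lists, chr11:98085001-100175000.

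From 100 to 110 Mb, 6 of 9 fetal and 6 of 11 adult boundaries were shared. In chr11:100175001-102915000 the single inner boundary lay at 101425000 in the fetal and 101485000 in the adult list, 60 kb apart. In chr11:102915001-104095000 it lay at 103175000 and 103285000, 110 kb apart. Both stretches thus held as many TADs in either list, with the inner edge displaced towards higher coordinates in the adult list. Towards the end of the window, chr11:106915001-109095000, a fetal TAD of 2180 kb, was divided in the adult list into 1350 and 760 kb at 108305000. Before it, chr11:105045001-106915000 held fetal TADs of 870 and 1000 kb and adult TADs of 810, 810 and 300 kb.

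From 110 to 120 Mb, 6 of 13 fetal and 6 of 12 adult boundaries were shared, or 48.0% of all. The fetal TAD chr11:110205001-111395000, of 1190 kb and with the same outer coordinates in both lists, was divided in the adult list into 160 and 1030 kb. In chr11:113035001-114535000 and chr11:114535001-115175000 the single inner boundaries were 150 and 160 kb apart, both higher in the adult list. In chr11:115175001-118875000 the fetal list held 6 TADs, of 600, 710, 230, 990, 570 and 600 kb, where the adult list held 3, of 1220, 1910 and 510 kb. The adult TAD of 1910 kb faced fetal TADs of 230, 990 and 570 kb. Its outer edges were 60 kb from theirs, beyond the tolerance, so it was not counted among the divided ones. This stretch and that from 93745001 were the 2 differently divided stretches in which the fetal list had more TADs. After it chr11:118875001-120255000, a fetal TAD of 1380 kb, was divided in the adult list into 290 and 1130 kb.

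Beyond 120 Mb, 2 of 3 fetal and 2 of 2 adult boundaries were shared. The adult TAD chr11:120265001-121843856, of 1579 kb, was divided in the fetal list into 580 and 1009 kb at 120835000. From chr11:113035001-121843856 no TAD was present in both lists, over 8.81 Mb with 13 fetal and 10 adult TADs. Longer regions without a TAD present in both lists began at 29025001, with 17.5 Mb that include the TAD-free stretch, at 79785001, with 10.8 Mb, and at 63035001, with 8.94 Mb. In these 3 regions the adult list had more TADs, with 12 against 7, 16 against 12 and 11 against 7 fetal ones. All such regions rest on the 40 kb rule for both ends, and TADs in them can still overlap closely. In that from 63035001, a fetal TAD of 1910 kb faced an adult TAD of 1870 kb, with upper edges 50 kb apart.

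**Figure D5:**
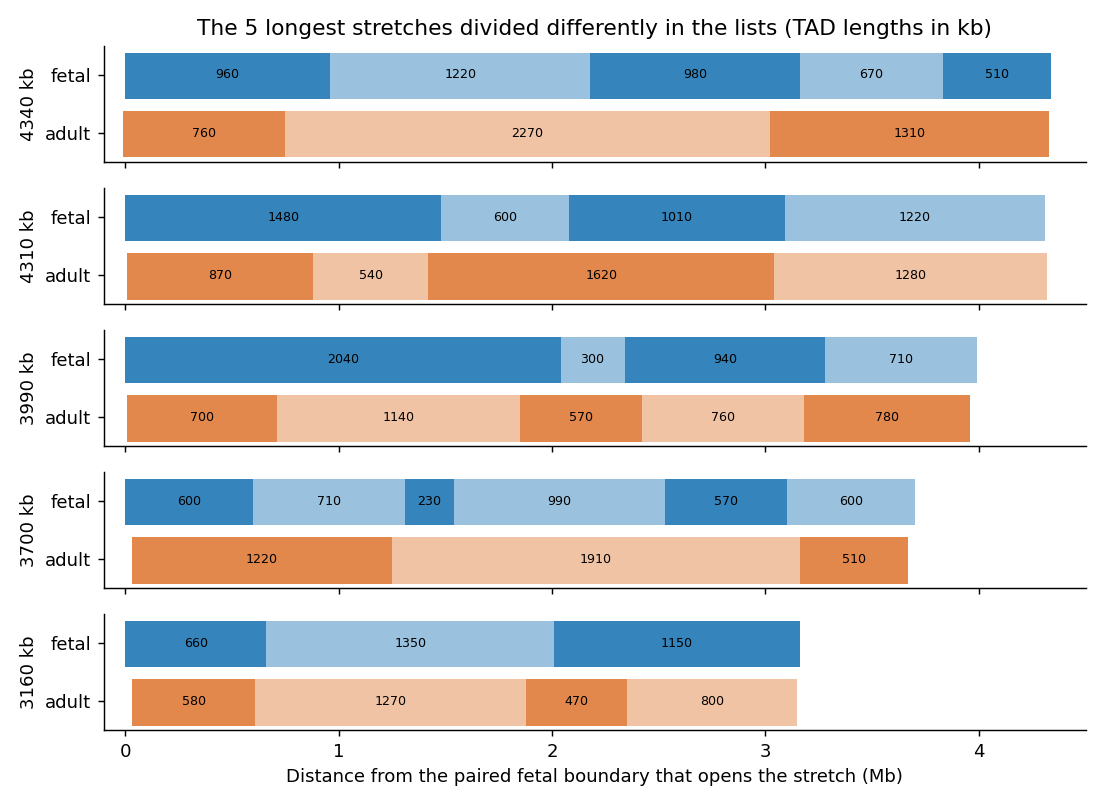
TADs of the 5 longest differently divided stretches in the fetal (blue) and adult (orange) lists, with each TAD's length in kb printed on it and the stretch's fetal length at the left (horizontal axis, distance from the opening fetal boundary in Mb). In the stretches of 4340 and 3700 kb the fetal list has more TADs, in those of 3990 and 3160 kb the adult list, and in that of 4310 kb the numbers are equal.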

How the data were processed

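The labels tie both Hi-C samples of a group to a single deposited TAD list, so 1 fetal and 1 adult list were compared. Each list gives a chromosome, start and end in base pairs, without a score. The submitters' processing notes name mm9, HiC-Pro and GSNAP without saying what each was used for. The sources used here do not give the TAD caller, its settings, the pooling of samples or the depth. A difference in any of these could add, remove or move boundaries. Positions lie on a 10 kb grid offset by 5 kb, except the chromosome's last end, so smaller shifts cannot be seen. Starts are printed counted from 1.

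Boundaries were paired nearest first within 40 kb, each used once, and stretches between neighbouring pairs were classed by their inner boundaries and TAD coverage, with lengths in fetal coordinates. The functions were tested on simulated data (Python 3.11.15, SciPy 1.17.1). These data held no partly TAD-free stretches and no displacements just beyond the 40 kb limit, so those cases were not tested. All stretches of chromosome 11 entered the counts, and the rule for naming took the 5 longest of each class and the longest run present in both lists; others were named to follow the chromosome. The members and definitions were chosen with earlier results of these data known. No genome sequence of the lists' build was used here, so no boundary sequence is shown.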

Additional observations from a re-analysis of the deposited data

How the results depend on the processing

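Of 55 other settings for the comparisons of chromosome 11, 32 left the value inside its 95% interval or, for counts, within 1.5 times, and 23 moved it. A reversal was defined only for the adult minus fetal differences in TAD number and length, and none occurred there. Lengths and length shares have no interval, so any change counted as a move. Boundary sharing followed the tolerance, with shares (fetal, then adult) of 13.1% and 11.8% for identical coordinates, 48.5% and 43.6% within 20 kb, and 78.8% and 70.9% within 100 kb. On the other chromosomes 30.9% and 31.0% had identical coordinates, and 11.6% and 10.9% lay more than 100 kb from the other list. No share within 20 kb was obtained there. TADs present in both lists numbered 19 within 20 kb. Fetal TADs divided in the adult list numbered 4 within 20 kb, against 3 adult TADs divided in the fetal list, and 15 within 100 kb. Within 100 kb, the fetal list divided 6 adult TADs, and 9 stretches were differently divided. Leaving out TADs under 200 kb raised the partly TAD-free stretches from 2 to 5, by construction. The length present in both lists was 21.0% within 20 kb, 45.8% within 100 kb and 33.0% in adult coordinates, a setting chosen after seeing the data, as was leaving out the chromosome's ends. For TAD counterparts, an overlap of 50% gave 83.3% of fetal and 74.1% of adult TADs, 90% gave 41.7% and 37.0%, and matching of both TAD ends to 40 kb gave 31.3% and 27.8%. The 90% overlap and the matching of both ends were not applied to the other chromosomes. The adult minus fetal length was -150 kb for medians of TADs of at least 200 kb and -72.6 kb for means. Moving the windows by 5 Mb gave a lowest share of 25.0%, from 35 to 45 Mb, with 6 of 20 boundaries shared from 85 to 95 Mb. No paired analysis was possible because each cell type has a single list for both replicates, and no replicate could be left out. The unknown depth limits every comparison.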
